A study of Sus scrofa with 14 samples.

Results

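The genes described here encode the nuclear subunits of the mitochondrial respiratory chain and of ATP synthase, measured in the mucosa of the piglet jejunum after perfusion with a digest of onion or of saline. A gene was included when its symbol began with NDUF, SDHA to SDHD, UQCR, COX4 to COX8, CYC1 or ATP5 and when a probe of the array carried a RefSeq accession of that gene. Of 43603 non-control probes, 6686 could be named in this way and covered 3020 genes. The rule found 27 genes with 99 probes, out of 81 symbols of the reference gene table that meet it. Grouped by symbol, they comprise 6 genes of complex I, 2 of complex II, 2 of complex III, 8 of complex IV, 8 of complex V and 1 assembly factor. Each gene was read at the probe with the highest mean signal.

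The samples came from the small intestinal segment perfusion (SISP) model, in which tied-off segments of the jejunum of an anaesthetised piglet are perfused in place. Male piglets of 5 weeks contributed 14 arrays from 7 animals, numbered 1, 2, 4, 5, 6, 7 and 8. Every animal gave a segment perfused with saline digest (Sd, n = 7) and a segment perfused for the same 6 h with a digest of yellow onion (YOd, pigs 1, 2 and 4) or of white onion (WOd, pigs 5, 6, 7 and 8). Per the methods, the onion digests were diluted in a peptone solution and the saline digest in saline, and the dilutions were unequal as well, so digest and diluent cannot be told apart. RNA was taken from mucosal scrapings, which hold epithelium together with stroma and leukocytes, and fewer cells of a type cannot be told apart from less RNA per cell.

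The respiratory chain passes electrons from NADH (complex I) and succinate (complex II) through complex III to complex IV, where oxygen is reduced. Complexes I, III and IV pump protons across the inner mitochondrial membrane, and complex V, the ATP synthase, uses the gradient to make ATP. Absorptive enterocytes depend on this ATP for the sodium pump that drives nutrient uptake, and most subunits are made from abundant nuclear transcripts. Subunits are also encoded by the mitochondrial genome, and those are not part of the set.

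Levels are given as scaled log2 signal, which is the log2 of a probe's processed intensity after division by the 75th percentile of its array, so that a value of 0 equals that percentile. A level may be compared between arrays for the same probe, but not between probes. A log2 ratio within a pig is the level in the onion segment minus the level in the Sd segment. Following the study, a gene was called affected when the LIMMA p-value without adjustment was below 0.05 and the fold change was above 1.5.

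From 50.05% to 70.7% of the probes on an array were well above background, and 545 to 964 were saturated. The share was lowest on Sd of pig 8 and next lowest on WOd of pig 7 (54.9%). These arrays also had the most outlier spots, 462 and 282 of 43803, which were left out. The arrays lay on 5 slides, and pig 7 stood apart, in that probes of the same gene disagreed there more than in the other pigs. Its Sd and WOd segments lay on slides 5 and 4, and Sd and YOd of pig 2 on slides 5 and 1. Slide 5, with Sd of pigs 2 and 7, was scanned in another session than the other slides.

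Saturation of the scanner was far more frequent in the set than among all named genes. Every array detected 26 of the 27 genes well above background. The probe with the highest signal was saturated on at least 1 array for 13 of the 27 genes (48.1%), against 218 of the 3020 named genes (7.22%). It was saturated on all 14 arrays for COX5B, COX6A1, ATP5E and ATP5G3, and on 13 for COX6C, COX7A2, COX7C, ATP5G1 and ATP5I. For ATP5A1 it was saturated on 12 arrays, for ATP5J2 on 8, for NDUFA4 on 3 and for COX6B on 2. These genes include structural subunits of cytochrome c oxidase (COX5B, COX6A1, COX6C, COX7A2 and COX7C), the catalytic-core alpha subunit of ATP synthase (ATP5A1) and the membrane ring subunit c, which ATP5G1 and ATP5G3 both encode.

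At the other end, COX8H, the heart-type isoform of COX8, was well above background on 1 of 14 arrays. It stood at the floor of the scale (-4.43) on every array except Sd of pig 1, where it read -2.42. It was not tested.

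A saturated spot has about the same raw intensity on every array, so its ratio after scaling tends to repeat the ratio of the scaling factors. For the 9 genes saturated on 13 or 14 arrays, pigs 1, 2 and 4 had median log2 ratios of 0.14, 0.10 and 0.64. The log2 ratio of the 75th percentiles, Sd over onion, was 0.18, 0.12 and 0.62 in the same pigs. In pigs 5, 6, 7 and 8 the saturated genes gave -0.07, 0.02, 0.07 and 0.18, beside -0.09, -0.05, 0.08 and 0.19 for the scaling. The difference between the median and the scaling was at most 0.07 in any pig. Single genes departed further, such as COX6A1 at 0.12 in pig 5 and ATP5G1 at 0.29 in pig 6. The 13 tested genes whose brightest probe was never saturated followed another order, with medians of 0.26, 0.06, 0.13, 0.16, 0.24, 0.05 and -0.25 in pigs 1, 2, 4, 5, 6, 7 and 8. The large shift of the saturated genes in pig 4 was therefore not found in the genes that could be measured. No fold change is given for genes saturated on 12 or more arrays.

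**Figure D1:**
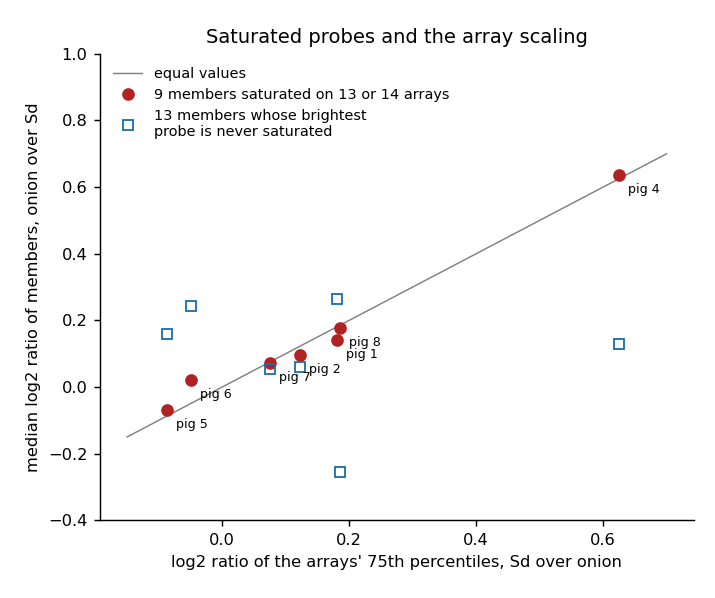
Median log2 ratio of members (onion over Sd, y axis) against the log2 ratio of the 75th percentiles of the same arrays (Sd over onion, x axis), with 1 point per pig. The median of the 9 genes saturated on 13 or 14 arrays lies on the line of equal values to within 0.07, while that of the 13 genes never saturated does not follow it.

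Another probe of the same gene that was saturated on no array was present for ATP5A1, ATP5E, ATP5J2, COX6B, COX7A2, COX7C and NDUFA4. Where a gene had several such probes, the brightest of them was used. Together with the 13 genes whose brightest probe was never saturated, 20 genes could be measured on all 14 arrays. This choice was made after the saturation had been seen. For COX5B, COX6A1, COX6C, ATP5G1, ATP5G3 and ATP5I every probe was saturated on at least 1 array, and these 6 genes have no usable ratio. All values below are for the 20 measured genes unless the brightest probe is named.

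No measured gene of the set was called affected by onion digest. None of the 20 genes was called in onion over Sd (7 pigs), and 29 of 2351 genes (1.23%) were called among all genes measured by such probes. With the brightest probe of every gene, 0 of 26 were called against 30 of 2453 genes (1.22%). Of these 26, 11 were read by a probe saturated on 8 or more arrays, which could show little of a change. For YOd over Sd (3 pigs) the counts were 0 of 20 against 106 of 2362 genes (4.49%), and 0 of 26 against 111 of 2464 genes (4.50%) with the brightest probe. For WOd over Sd (4 pigs) they were 0 of 20 against 34 of 2365 genes (1.44%), and 0 of 26 against 29 of 2467 genes (1.18%). With background shares this low, a count of 0 among 20 or 26 genes does not set the members apart from all genes. In these comparisons, with pig alone as block, no gene of any kind passed the Benjamini-Hochberg adjustment in LIMMA. Without it, 153 of 2351, 266 of 2362 and 63 of 2365 genes had a LIMMA p-value below 0.05.

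Among the 20 genes none reached a LIMMA p-value below 0.05 in onion, YOd or WOd over Sd. The brightest probes gave 2 such genes of 26 in onion over Sd, against 6.85% of all genes, and both were touched by saturation. NDUFA4, saturated on Sd of pigs 4 and 8 and on YOd of pig 4, had a log2 fold change of 0.30 ± 0.11 (SE) with an interval from 0.05 to 0.55 and an adjusted p of 0.635 in LIMMA. The same gene read by its brightest never-saturated probe gave 0.16 ± 0.12 (SE), an interval from -0.11 to 0.42 and an adjusted p of 0.761 in LIMMA. ATP5A1, saturated on 12 arrays, was the other.

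The precision of the measurements bears on how much can be said of this lack of calls. In onion over Sd the standard errors of the 20 genes ranged from 0.10 to 0.17 on the log2 scale. The 95% interval lay within 1.5-fold in both directions for 19 of the 20 genes, against 78.3% of all genes. The exception was NDUFA4L2, with an interval from -0.15 to 0.60. In YOd over Sd and in WOd over Sd the interval lay within 1.5-fold for 16 of 20 genes each, against 51.1% and 47.6% of all genes. All genes include some that stood at the floor on part of the arrays, and signal level was not matched. Changes smaller than these intervals were not detectable with 3 to 7 pigs.

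**Figure D2:**
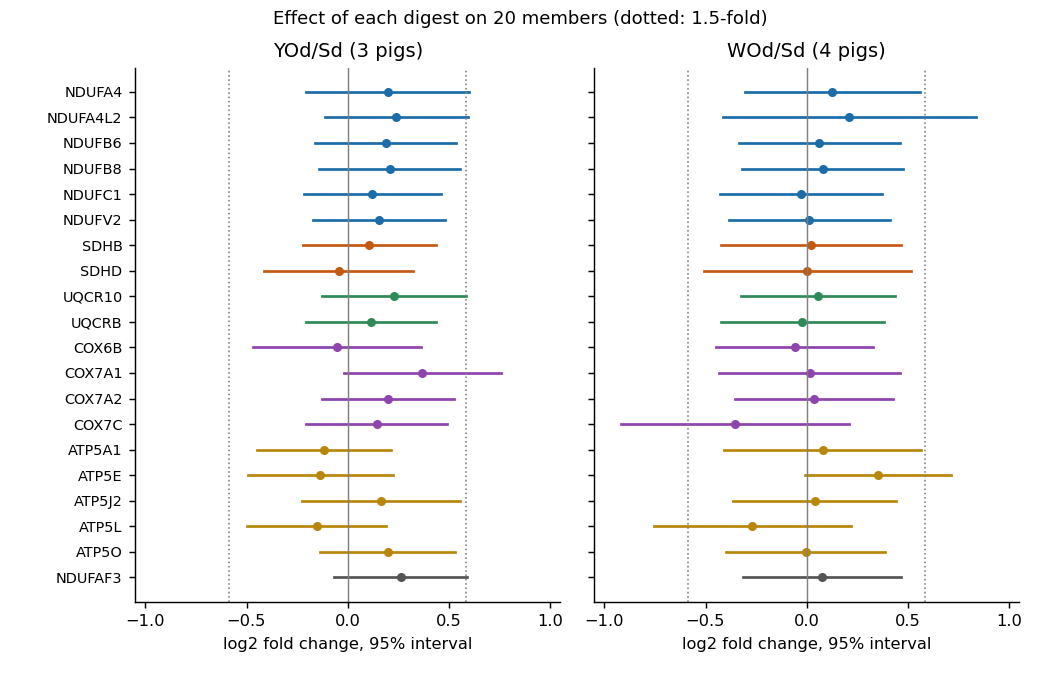
Log2 fold change (points) with its 95% interval (bars) for the 20 measured genes in YOd over Sd and in WOd over Sd, coloured by complex, with dotted lines at 1.5-fold. Every interval includes 0, and 16 of 20 lie between the dotted lines in each comparison.

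The median log2 fold change of the 20 genes was 0.09 in onion over Sd, beside 0.07 for all genes. It was 0.16 in YOd over Sd and 0.03 in WOd over Sd, beside 0.12 and 0.04. Of the 20 genes, 15 lay above 0 in onion over Sd, as did 68.0% of all genes. The small upward shift of the set was close to the upward shift of the array as a whole, and with quantile normalization the mean over pigs of the median ratio was 0.01.

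Complex I takes electrons from NADH. NDUFB8, an accessory subunit of its membrane arm, ranged from 5.69 to 6.44 over the 7 Sd arrays with a median of 6.22. It read 6.74, 6.09 and 6.33 in YOd of pigs 1, 2 and 4, and 6.37, 6.00, 6.30 and 6.16 in WOd of pigs 5, 6, 7 and 8. The onion segments were higher in 5 of 7 pigs and the groups overlapped almost completely. The log2 fold change was 0.13 ± 0.10 (SE) and the adjusted p in LIMMA was 0.761.

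NDUFV2, an iron-sulfur subunit of its peripheral arm, had log2 ratios from -0.33 in pig 8 to 0.22 in pig 1 at the probe chosen. NDUFB6 and NDUFC1, further accessory subunits, ranged from -0.28 to 0.36 and from -0.25 to 0.27. At the probes chosen, pig 8 had the lowest ratio and pig 1 the highest in all of these. Other probes gave another order. Over 5 probes of NDUFV2 the median ran from -0.43 in pig 8 to 0.38 in pig 5, and was above 0 in 3 of 7 pigs. Over 2 probes of NDUFC1 the median was lowest in pig 7, at -0.37.

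NDUFA4 was described with complex I and is now counted as a subunit of complex IV. Its brightest never-saturated probe read from 5.40 to 6.35 in Sd (median 6.02), 6.79, 5.94 and 6.36 in YOd, and 6.37, 5.78, 5.80 and 6.06 in WOd. The log2 ratios of that probe were 0.51, -0.08, 0.16, 0.41, 0.38, 0.00 and -0.28 in pigs 1, 2, 4, 5, 6, 7 and 8. Over 4 never-saturated probes the median was above 0 in 3 of 7 pigs, and was -0.05 in pig 4.

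NDUFA4L2, a paralog of NDUFA4 that is known as a target of hypoxia signalling, behaved apart from the rest of the group. It was dim, ranging from -3.43 to -2.51 in Sd with a median of -2.71. It read -2.62, -2.39 and -2.61 in YOd and -2.19, -3.01, -3.13 and -2.63 in WOd. Pig 5 had a log2 ratio of 1.24, whereas the other 6 pigs ranged from -0.34 to 0.44. Together with COX7C it gave the widest spread of ratios among the 20 genes (SD 0.51, n = 7 each) and a log2 fold change of 0.22 ± 0.17 (SE) with an adjusted p of 0.761 in LIMMA. NDUFAF3, an assembly factor of complex I, had ratios from -0.17 to 0.35 and a log2 fold change of 0.15 ± 0.10 (SE).

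Complex II oxidises succinate and is shared with the TCA cycle. SDHB, its iron-sulfur subunit, ranged from 4.70 to 5.84 in Sd (median 5.32). It read 5.53, 5.06 and 5.85 in YOd and 5.01, 5.28, 5.15 and 5.63 in WOd. SDHD, a membrane anchor of the complex, ranged from 4.14 to 5.57 in Sd (median 4.81). It read 5.48, 4.57 and 4.79 in YOd and 4.28, 4.74, 4.95 and 5.10 in WOd.

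At the probes chosen, SDHB and SDHD differed in direction in some pigs. In pig 5 the log2 ratio was 0.31 for SDHB and -0.54 for SDHD, and in pig 7 it was -0.36 and 0.20. In pig 6 both were above 0, at 0.33 and 0.60, and in pig 8 both were below 0, at -0.20 and -0.25. Other probes of the genes gave another picture in pig 5, where the median was -0.08 over 7 probes of SDHB and -0.24 over 5 probes of SDHD. In pig 2 these medians were -0.25 and -0.24, although the chosen probe of SDHB read 0.02. The log2 fold changes in onion over Sd were 0.06 ± 0.11 (SE) for SDHB and -0.02 ± 0.14 (SE) for SDHD. The direction of SDHB turned with quantile normalization, without scaling and with normexp background correction.

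Complex III passes electrons from ubiquinol to cytochrome c. UQCR10, a small subunit, ranged from 5.92 to 6.81 in Sd (median 6.42). It read 6.96, 6.36 and 6.81 in YOd and 6.62, 6.13, 6.41 and 6.63 in WOd. The onion segment was higher in 6 of 7 pigs, by at most 0.40 on the log2 scale, and the fold change of 0.13 ± 0.10 (SE) turned below 0 with quantile normalization and without scaling. UQCRB, a subunit near the ubiquinone site, ranged from 4.67 to 5.70 in Sd (median 5.43). It read 5.75, 5.38 and 5.56 in YOd and 5.54, 4.96, 5.46 and 5.25 in WOd, with a fold change of 0.04 ± 0.10 (SE). Its direction turned in those scalings too.

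Complex IV, cytochrome c oxidase, has subunits with tissue-specific isoforms. COX7A1, the isoform known from heart and skeletal muscle, was detected on all 14 arrays. It ranged from 4.23 to 5.25 in Sd (median 4.52). It read 5.76, 4.42 and 5.06 in YOd and 4.86, 4.47, 4.47 and 4.78 in WOd. The log2 ratios were 0.50, 0.06 and 0.54 in the YOd pigs, and 0.41, 0.24, -0.30 and -0.28 in the WOd pigs.

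COX7A1 had the lowest p-value among the 20 genes in YOd over Sd, with a log2 fold change of 0.37 ± 0.16 (SE), an interval from -0.02 to 0.76 and an adjusted p of 0.433 in LIMMA. The interval of the difference between the digests ran from -0.23 to 0.94 and included 0. Smooth muscle is a further source of muscle-type transcripts, and the summed levels of its markers are given below. The median log2 ratios of 5 smooth muscle markers were 0.05, 0.07 and -0.27 in pigs 1, 2 and 4. They were -0.06, -0.26, -0.63 and -0.32 in pigs 5, 6, 7 and 8. The part of smooth muscle in the ratios of COX7A1 was not tested.

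COX7A2, the widely expressed isoform, was saturated at its brightest probe. Its brightest never-saturated probe was the steadiest over the Sd arrays, ranging from 5.87 to 6.45 (SD 0.19, n = 7). It read 6.45, 6.14 and 6.56 in YOd and 6.28, 6.09, 6.13 and 6.22 in WOd, with a log2 fold change of 0.10 ± 0.10 (SE). That probe had log2 ratios of 0.18 in pig 5 and -0.03 in pig 7, where the medians over 3 never-saturated probes were -0.09 and 0.11. COX6B, a subunit at the dimer interface, had log2 ratios from -0.43 in pig 4 to 0.14 in pig 1 at its never-saturated probe.

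COX7C, another small subunit, had the lowest log2 ratio within a pig among the 20 genes. Its never-saturated probe ranged from 4.81 to 5.93 in Sd (median 5.39). It read 5.36, 5.46 and 5.76 in YOd and 4.98, 5.32, 4.26 and 5.59 in WOd. WOd of pig 7 was the lowest of the 14 arrays, and the log2 ratio there was -1.19, against -0.34 to 0.25 in the other 6 pigs.

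**Figure D3:**
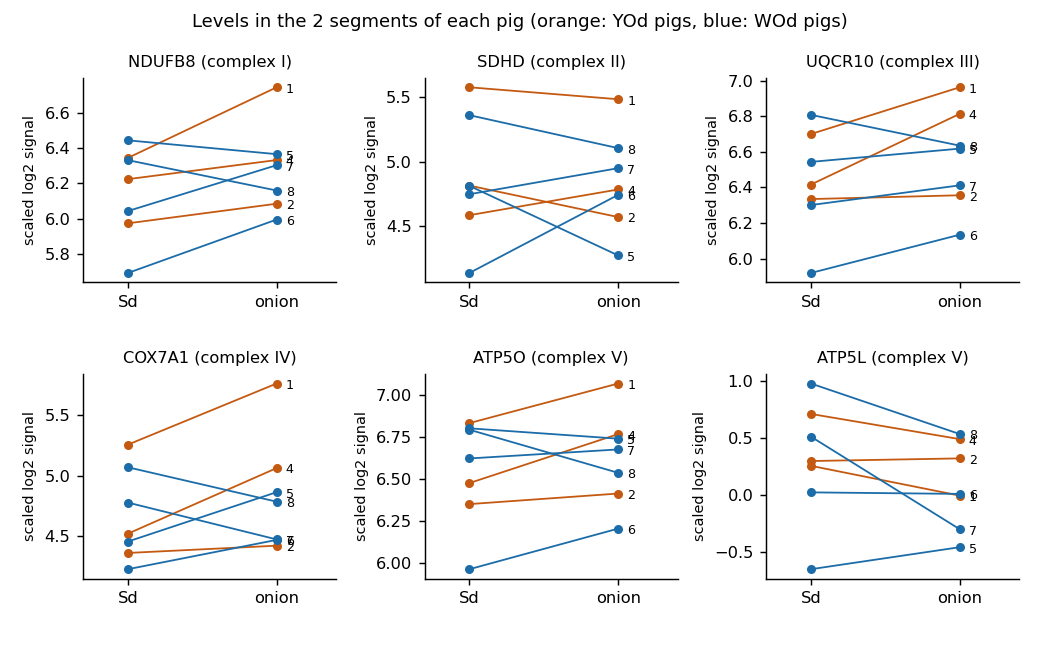
Scaled log2 signal of 6 genes in the Sd and the onion segment of each pig, joined by a line and labelled by pig number, with YOd pigs in orange and WOd pigs in blue. Lines go up in some pigs and down in others in each panel, and the lines of pig 8 go down in all 6.

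Complex V is the ATP synthase. ATP5O, the stalk subunit that joins its catalytic head to the membrane part, ranged from 5.96 to 6.83 in Sd (median 6.62). It read 7.07, 6.41 and 6.77 in YOd and 6.74, 6.20, 6.67 and 6.53 in WOd, with a log2 fold change of 0.08 ± 0.10 (SE). ATP5J2, the membrane subunit f, had a similar span of ratios, from -0.32 in pig 8 to 0.40 in pig 1.

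ATP5A1, the alpha subunit, ranged from 4.62 to 6.20 in Sd (median 6.14) at its brightest never-saturated probe. It read 6.19, 5.63 and 5.95 in YOd and 5.95, 5.28, 5.96 and 5.85 in WOd. The low Sd value belonged to pig 6, where WOd was also the lowest of its group, and the log2 ratio of pig 6 was 0.66. In the other pigs it lay between -0.32 and 0.20, and the log2 fold change was -0.01 ± 0.13 (SE). Over 8 never-saturated probes the median was above 0 in 1 of 7 pigs, at 0.70 in pig 6, and was -0.05 in pig 7.

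ATP5L, the membrane subunit g, had the largest decrease of the set in onion over Sd, which did not pass the test. It ranged from -0.65 to 0.97 in Sd (median 0.30). It read -0.01, 0.32 and 0.49 in YOd and -0.46, 0.01, -0.30 and 0.53 in WOd. The ratio was above 0 in 2 of 7 pigs, the log2 fold change was -0.22 ± 0.13 (SE), and the adjusted p in LIMMA was 0.761. The ratio of pig 7, -0.81, was the lowest.

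ATP5E, the epsilon subunit of the catalytic head, was the single gene whose response differed between the digests at a p-value below 0.05 without adjustment. Its never-saturated probe ranged from 0.77 to 2.03 in Sd (median 1.63). It read 1.95, 1.53 and 1.20 in YOd and 1.95, 1.67, 2.33 and 1.21 in WOd. The log2 ratios were -0.06, -0.36 and 0.01 in the YOd pigs, and 0.31, 0.35, 0.30 and 0.44 in the WOd pigs, so both groups of pigs did not overlap.

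In ATP5E the log2 effect of YOd lay below that of WOd by a difference of -0.49 ± 0.19 (SE), with an interval from -0.92 to -0.05 and an adjusted p of 0.930 in LIMMA. A p-value below 0.05 was found for 4.23% of the 2456 genes in that comparison, and for 1 of the 20 members. The p-value was above 0.05 when pig 1, 2, 6 or 8 was left out, and the difference was -0.50 without pig 7. In the pigs other than pig 7, the probe read higher by 0.53 on average on slides 2 and 4, and WOd of pig 7 lay on slide 4. The difference did not reach 1.5-fold except without scaling of the arrays (-0.77), where the gene was called together with 4.28% of 2451 genes, and it was not called otherwise. Among all genes 90 of 2456 (3.66%) were called in that comparison, with the brightest probes 90 of 2558 (3.52%), and no member in either. The brightest probe of ATP5E was saturated on all arrays and gives no second reading of this gene.

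The genes of the set shared a part of their movement within pigs. At the 1 probe chosen per gene, the number of the 20 genes above 0 was 16, 15, 16, 15, 17, 12 and 1 in pigs 1, 2, 4, 5, 6, 7 and 8. The median log2 ratios were 0.23, 0.04, 0.12, 0.16, 0.24, 0.05 and -0.26, beside 0.19, 0.01, 0.15, 0.07, 0.11, 0.10 and -0.10 for all genes. Other probes changed part of this. In pig 7, medians over a gene's never-saturated probes turned below 0 for ATP5A1 (-0.05), ATP5O (-0.07), NDUFA4 (-0.02), NDUFV2 (-0.02) and UQCRB (-0.52), and above 0 for COX7A2 (0.11). They also turned below 0 for NDUFB6, NDUFC1, NDUFV2 and SDHB in pig 2 and for NDUFA4, NDUFV2 and SDHD in pig 4. Pig 8 was the animal in which the set was lower after onion, and ATP5E was the gene above 0 there. Neighbouring lists moved partly alike. In the same pigs, 8 carriers and porins had medians of 0.18, -0.01, 0.25, 0.22, 0.37, 0.09 and -0.22. For 7 mitochondrial ribosome genes they were 0.37, 0.00, 0.02, 0.27, 0.30, 0.24 and -0.14. For 11 genes of the TCA cycle and pyruvate dehydrogenase they were 0.05, -0.09, -0.05, 0.04, 0.38, 0.24 and -0.18.

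By complex, the median ratio of the 6 genes grouped by symbol as complex I was above 0 in 6 of 7 pigs. It ran there from 0.05 in pig 7 to 0.38 in pig 1, and was -0.26 in pig 8. These 6 include NDUFA4, now counted with complex IV, and its paralog NDUFA4L2, and no recount was made. Complex IV (4 genes) was above 0 in 5 pigs, and complex III (2 genes) in 5. Complex V (5 genes) was above 0 in 4 pigs and lay between -0.32 in pig 8 and 0.24 in pig 6. Complex II (2 genes) was above 0 in 3 pigs.

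**Figure D4:**
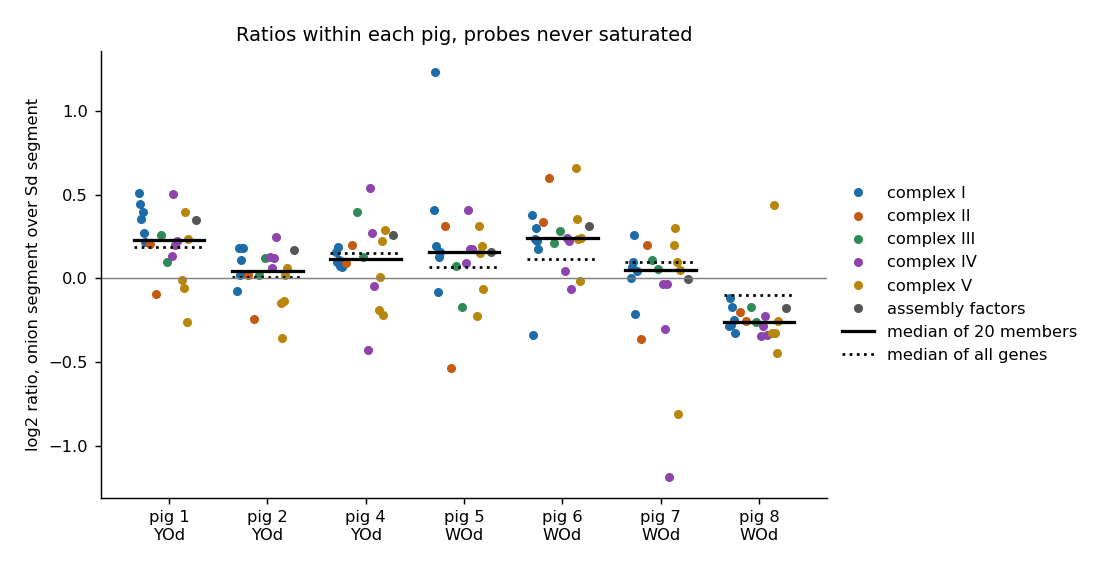
Log2 ratio of the onion over the Sd segment within each pig (x axis) for the 20 measured genes, coloured by complex, with the median of the 20 (solid) and of all genes (dotted). Most points lie above 0 in pigs 1, 2, 4, 5 and 6, and 19 of 20 lie below 0 in pig 8.

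Over the 7 pigs, the ratios of 2 genes of the set had a median Pearson correlation of 0.47 (190 pairs), and a median Spearman correlation of 0.46. Over all genes the median was 0.07. Within complex I as grouped by symbol it was 0.66 (15 pairs). Within complex IV it was 0.43 (6 pairs) and within complex V 0.15 (10 pairs). These correlations describe genes on the same 14 arrays, which share the scaling of each array, and carry no test. Without pig 8 the median over the set was 0.26, with all genes at 0.03. With quantile normalization it was 0.17, with all genes at 0.01.

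The sign of the shared shift also depended on the scaling. With quantile normalization the median ratio of the 20 genes was 0.03, 0.03, -0.08, 0.06, 0.09, -0.02 and -0.06 in pigs 1, 2, 4, 5, 6, 7 and 8, so that pigs 4 and 7 turned below 0. Without any scaling it was -0.51 in pig 4, where all 20 genes were below 0, and -0.08 in pig 2. Pigs 1, 5 and 6 stayed above 0 and pig 8 below 0 in each of the 5 settings examined.

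The animals differed at baseline. Over the 7 Sd arrays the SD of a gene of the set had a median of 0.34, against 0.41 for all genes, and ranged from 0.19 for COX7A2 to 0.57 for ATP5A1. Sd of pig 6 was the lowest of the 7 for 15 of the 20 genes, with a median of -0.42 relative to each gene's own mean over Sd, and Sd of pig 8 was the highest for 12, with a median of 0.34. For all genes the medians of these arrays were -0.19 and 0.14. With quantile normalization Sd of pig 6 was still the lowest for 14 of the 20 genes, while Sd of pig 8 was the highest for 4 and Sd of pig 4 for 10.

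The onion segments of the same animals lay closer to the mean. Relative to the same mean over Sd, the median was -0.19 in WOd of pig 6 and 0.06 in WOd of pig 8. A ratio shares its Sd value with the baseline, so a low Sd value by itself raises the ratio. In pig 6 the set was low in both segments, and in pig 8 the Sd segment stood out. Sd of pig 8 was also the array with the lowest share of probes well above background, and the bearing of this was not tested.

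Within pigs the set moved little. Of 140 ratios of the 20 genes, 5 were above 1.5-fold in either direction (3.57%), against 15.5% over all genes. The 5 ratios were NDUFA4L2 in pig 5, SDHD and ATP5A1 in pig 6, and COX7C and ATP5L in pig 7. The median absolute ratio was 0.21 for the set and 0.24 for all genes. The 20 genes were well above background on every array, whereas all genes include some at the floor on part of the arrays. Signal level was not matched, and its part in the difference between the shares above 1.5-fold was not tested.

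Pig 7 needs a separate account, because probes of a gene disagreed in that animal. For the 11 genes with 2 or more never-saturated probes above background on all arrays, the range of the ratio over a gene's probes had a median between 0.17 and 0.37 in the other 6 pigs. In pig 7 the median range was 0.60 and the highest was 4.00, for ATP5O. A range above 1 was found for 4 of the 11 genes in pig 7 and for none of them in the other pigs. Among 951 genes of any kind with several such probes, 17.8% had a range above 1 in pig 7 and 1.16% to 5.57% in the others.

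The brightest of 9 such probes of ATP5O gave a log2 ratio of 0.05 in pig 7, whereas the dimmest gave -3.69. For UQCRB the brightest of 7 gave 0.06 and the dimmest -2.78. In each case the low value was that of WOd, with -1.18 in WOd and 2.51 in Sd for ATP5O, and 0.24 and 3.02 for UQCRB. A dim probe of NDUFA4 behaved alike, with -4.43, the floor, in WOd and -0.35 in Sd.

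Those probes were low on other arrays as well, and the arrays concerned lay on the same slides. The 14 arrays were spread over 5 slides, and pig 7 had Sd on slide 5 and WOd on slide 4. Slides 2 and 4 held both arrays of pigs 1 and 5 and WOd of pig 7, and the other 9 arrays lay on slides 1, 3 and 5. The probe of ATP5O read from -1.38 to -0.48 on the 4 arrays of pigs 1 and 5 and from 2.31 to 3.23 on the 8 arrays of pigs 2, 4, 6 and 8. The probe of UQCRB read from 0.28 to 1.03 and from 2.77 to 3.46 on the same arrays. The probe of NDUFA4 read from -4.32 to -3.39 and from -0.37 to 1.22.

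**Figure D5:**
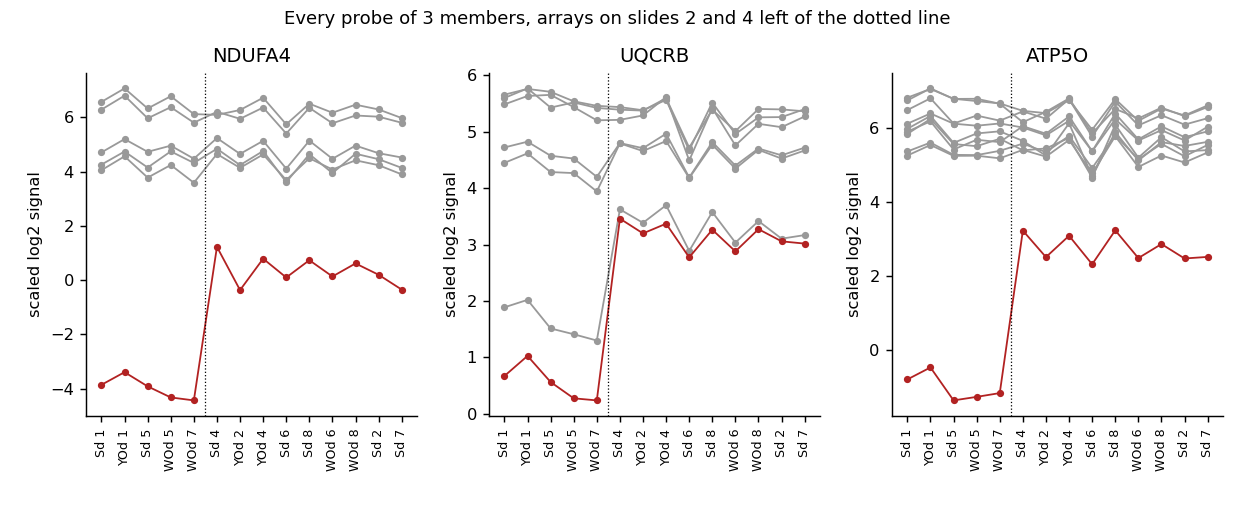
Scaled log2 signal of every probe of NDUFA4, UQCRB and ATP5O (1 line each) on the 14 arrays, with the 5 arrays of slides 2 and 4 left of the dotted line. The probes in red were separated by more than 1 between both sets of slides in the 6 other pigs, and both arrays of pig 7 fall on the side of their own slide.

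The pattern was not particular to the respiratory chain. With pig 7 left out, 311 of 27369 probes were lower on slides 2 and 4 than on slides 1, 3 and 5 by a gap of more than 1 on the log2 scale, and 2 were higher. Of the 311 probes, 297 were on the low side in WOd of pig 7 and 304 on the high side in Sd of pig 7. Their median log2 ratio was -2.22 in pig 7 and at most 0.24 in absolute value in any other pig. Over 95 probes of the set, the difference between the slides in the other pigs correlated with the ratio in pig 7 at r = 0.96, and at -0.09 to 0.49 with the ratios of the other pigs. The set's probes include those of ATP5O, NDUFA4 and UQCRB described above, with ratios of -3.69, -4.08 and -2.78 in pig 7. Such extreme values weigh heavily on r, which was not recomputed without them. Over all 27369 probes r was 0.46 in pig 7. These are correlations across probes, which share their arrays. The slides were the measured difference, and any cause behind it was not tested. The arrays of pig 7 differed in scan session as well as slide.

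COX7C and ATP5L, whose ratios were lowest in pig 7, were also read by probes that were lower on slides 2 and 4 on average, by 0.49 and 0.63 in the other pigs. The ranges of both sets of slides overlapped for each gene, and COX7A1 and NDUFC1 had ratios below 0 in pig 7 (-0.30 and -0.21) although their probes were higher on slides 2 and 4, by 0.47 and 0.33. Slides 2 and 4 held only pigs 1 and 5 apart from pig 7, so slide and animal cannot be told apart here. Without pig 7 and with never-saturated probes, the count of affected members stayed at 0 in onion, YOd and WOd over Sd and in the difference. The median log2 fold change in WOd over Sd was then 0.04, beside 0.02 for all genes.

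Other cell types of the scrapings were followed by marker lists, whose summed linear levels use never-saturated probes. Of 9 enterocyte markers with a probe, 8 were saturated at the brightest probe on 13 or 14 arrays. All 9 were well above background on every array. The 3 enterocyte markers measured by a never-saturated probe had summed levels from 168 to 211 in Sd, 171 to 200 in YOd and 167 to 214 in WOd. These sums leave out the enterocyte markers not measured by such a probe. Smooth muscle (5 markers) had summed linear levels from 21.7 to 41.7 in Sd, 23.1 to 48.0 in YOd and 13.2 to 33.9 in WOd, and its median ratio was -0.63 in pig 7. Proliferating crypt cells (4 markers) spanned 9.96 to 22.04 in Sd, 8.73 to 20.4 in YOd and 10.65 to 21.2 in WOd, with median ratios of -1.19 in pig 4 and -0.80 in pig 8. Goblet cells (2 markers) spanned 3.77 to 7.59 in Sd, 3.89 to 9.55 in YOd and 5.17 to 6.96 in WOd. Leukocytes (8 markers) spanned 6.07 to 18.4, 11.3 to 17.1 and 6.83 to 15.9. No marker was called in any comparison. In pig 8 the median ratio was -0.26 for enterocyte, -0.32 for smooth muscle, -0.80 for crypt, 0.16 for goblet and -0.09 for leukocyte markers. The respiratory chain stood at -0.26 there. In pig 4 these medians were 0.19, -0.27, -1.19, 0.34 and 0.32, beside 0.12 for the respiratory chain. The part of these cells in the ratios was not tested.

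The neighbouring pathways of energy metabolism gave 2 calls, in comparisons where 4.49% (YOd over Sd) and 3.66% (the difference between the digests) of all genes were called. These calls do not set the pathways apart from all genes. Of the 11 measured genes (of 19 listed) of the TCA cycle and pyruvate dehydrogenase, which feed electrons to the chain, none was called, and their median log2 fold change in onion over Sd was 0.06. None of 7 measured genes (of 77) of the mitochondrial ribosome, 2 (of 36) other assembly factors or 3 (of 16) regulators of mitochondrial biogenesis was called, with medians of 0.10, 0.04 and -0.07. Of 8 carriers and porins (of 11), whose median was 0.14, UCP3 was called up in YOd over Sd, with a log2 fold change of 1.06 ± 0.41 (SE) and an adjusted p of 0.430 in LIMMA. UCP3 is an uncoupling protein of the inner membrane, known mainly from skeletal muscle. Of 8 glycolysis genes (of 17) none was called in onion over Sd, with a median of -0.04, and LDHB, a lactate dehydrogenase subunit, was called in the difference between the digests at 0.72 ± 0.28 (SE), with an adjusted p of 0.930 in LIMMA.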

How the data were processed

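Mucosal RNA of 14 segments was hybridised to custom 8x60K Agilent pig arrays, 1 sample per array. Per the file headers, the authors extracted spots with Agilent Feature Extraction 10.7.3.1, and the deposited processed signals are background-corrected intensity values. The deposited series table holds log2 values centred per probe, for which the submitters' processing notes name RMA. It served as an alternative. Its centre is not the mean or median of these arrays, and its normalization between arrays is not given in the sources used here.

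Outlier spots (5 to 462 of 43803 per array) were left out and spots of a probe averaged. Signals were divided by the 75th percentile of each array, floored at the 40th percentile of all values and log2-transformed. Probes were named by RefSeq accession with the gene table of the Sscrofa11.1 assembly. LIMMA (limma 3.58.1, R 4.3.3) was fitted over all genes above the floor on at least 7 (onion, both digests together), 3 (YOd and difference) or 4 (WOd) arrays, with pig as block. Arrays of a pig deviated together (r from 0.32 to 0.75 over 19560 probes). Array number limits precision, since 3 to 7 pigs entered each comparison. The fits were tested on simulated data. Intervals are at the 95% level.

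Members and lists were chosen with earlier results of these data known. Genes were named if called, if they had the largest rise, fall or spread over Sd of their complex, if they had isoforms, or if they had the 3 lowest p-values of a comparison; the other measured genes were named to account for the set. The marker lists covered enterocytes, smooth muscle, proliferating crypt cells, goblet cells and leukocytes; the pathway lists are those in the text. Alternatives covered scaling, background, floor, filter, probe choice, block, slide and each pig.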

Additional observations from a re-analysis of the deposited data

Results flagged for a closer look

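Over groups of 4 to 10 values, a value was singled out when its gap to the nearest other value was large for the range of its group (Dixon's 95% critical value). Of 66 groups examined, 8 held such a value, and chance gives about 1 in 20 groups. Among levels, Sd of pig 6 was low for NDUFC1 (3.97, others 4.56 to 4.96), ATP5A1 (4.62, others 5.76 to 6.20) and ATP5J2 (5.26, others 5.90 to 6.24). WOd of pig 6 was low for ATP5A1 (5.28, others 5.85 to 5.96) and COX6B (2.52, others 2.78 to 2.84). Among log2 ratios at the probes chosen, NDUFV2 was low in pig 8 (-0.33, others 0.04 to 0.22) and COX7C in pig 7 (-1.19, others -0.34 to 0.25). The median log2 ratio of the 20 measured genes was low in pig 8 (-0.26, others 0.04 to 0.24).

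For 2 genes the effect of YOd differed from that of WOd by LIMMA's test of the difference without adjustment. The difference was -0.49 on the log2 scale for ATP5E and 0.72 for LDHB, and the adjusted p was 0.930 for each.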

How the results depend on the processing

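With the brightest probes, no respiratory chain or ATP synthase gene was affected in any comparison under any alternative that was run, each leave-one-pig-out fit included (0 to 0). For the 11 genes saturated on 8 or more arrays this count says little, because a saturated probe can hardly show a change. With never-saturated probes, chosen after seeing the data, the alternatives of scaling, background, floor, filter, block, slide and pig gave 0 as well, with 1 exception. Without scaling, 1 gene, ATP5E, was affected in the difference between digests (-0.77, adjusted p 0.889 in LIMMA). The medians of the 26 genes read by the brightest probe moved with scaling. In YOd/Sd the median was 0.28, but 0.0080 with quantile normalization and -0.031 without scaling, and in the difference between digests it was 0.18, but 0.017 and -0.098. Without scaling the median of all genes moved from 0.14 to -0.16 in YOd/Sd. Leaving out 1 pig, the members' median ran from 0.08 to 0.16 in onion/Sd, 0.15 to 0.35 in YOd/Sd, 0.02 to 0.07 in WOd/Sd and 0.12 to 0.28 in the difference.

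The counts of all affected genes, against which members were read, were less stable. The order is onion/Sd (30), YOd/Sd (111), WOd/Sd (29) and the difference (90). With normexp they were 19, 65, 13 and 51. With every probe, named or not, they were 223, 1300, 339 and 1601. The series table gave 16, 10, 12 and 43. Without the replicate block, that is without pairing by pig, they were 11, 19, 10 and 5. With slide as an added block they were 80, 327, 91 and 196, and with only pigs whose arrays share a slide, which leaves out pigs 2 and 7, they were 78, 325, 90 and 199. Under each of these settings, 14 genes passed the Benjamini-Hochberg adjustment in LIMMA in onion/Sd, against 0 with pig alone as block and all pigs. Without a filter on dim genes, YOd/Sd gave 20, WOd/Sd 17 and the difference 46. Quantile normalization gave 63 in YOd/Sd, and no scaling gave 16 in onion/Sd. Leaving out 1 pig gave 16 (pig 1) to 50 (pig 7), 52 (pig 1) to 325 (pig 2), 44 (pig 8) to 90 (pig 7) and 45 (pig 4) to 160 (pig 2). Never-saturated probes with pig 7 left out, chosen after seeing the data, gave 48 in onion/Sd and 90 in WOd/Sd. The cause was not tested.

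Fold changes near 0 turned direction. In onion/Sd, SDHB was -0.00091 with quantile normalization, -0.092 without scaling and -0.0091 with normexp. UQCR10 was -0.074 and -0.020 in the first 2 of these, and UQCRB -0.014 and -0.11, and -0.059 as the mean of its probes. Leaving out 1 pig, SDHD ran from -0.12 to 0.069 and UQCRB from -0.0035 to 0.088. NDUFA4 in WOd/Sd was -0.046 as the mean of its probes. ATP5E's difference between digests ran from -0.56 (without pig 4) to -0.38 (without pig 2), its raw LIMMA p was above 0.05 without pig 1, 2, 6 or 8. Saturation left 6 genes without a usable ratio, and 27 of the 81 genes that meet the rule had a named probe.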
